A study of Mus musculus with 28 samples.

Results

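*Slc35d3*, *Eya1*, *Tshz1* and *Sfxn1* were read in the H3K4me3 and H3K27me3 lists of A2a and D1 medium spiny neurons (MSNs) of the mouse striatum. *Slc35d3*, *Eya1* and *Tshz1* were taken as known markers of direct pathway neurons, and *Sfxn1* was taken because it lies beside *Drd1*. The rule used gene names and position, and these are 4 of the 21938 protein-coding genes on chromosomes 1 to 19, X and Y. At each gene, H3K4me3 peaks and H3K27me3 islands were read at the promoter, which ran from 2 kb upstream to 1 kb downstream of the annotated transcription start site (TSS), and over the gene body. An overlap of 1 bp was enough for a peak or island to count.

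The nuclei came from Sun1-sfGFP;A2a-cre mice (A2a) and Sun1-sfGFP;Drd1-cre mice (D1), males and females on a C57BL/6J background at about 8 weeks of age. That age is from the paper's methods, and its results give a wider range. Both groups carry the R26-CAG-LSL-Sun1-sfGFP allele, a nuclear membrane tag that stays silent until Cre removes a stop cassette, so each Cre driver decides which nuclei are tagged. A cell that used the driver only earlier in life is tagged as well. Tagged nuclei were purified (INTACT) from the bilateral striatum of a single mouse and profiled by CUT&RUN (CnR), in which a tethered nuclease releases the DNA around an antibody. Each deposited list pools 2 replicates, so 8 of the 28 samples are in the 4 lists and the other 20 were not analysed here. The lists therefore give no spread between mice, and no difference between A2a and D1 in them has a test.

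For the D1 H3K27me3 samples the source name reads A2a, whereas D1 stands in the title and the cell type. The title was followed, and all H3K27me3 comparisons rest on that reading. In the list titled D1, islands covered 100% of the span from promoter to gene end at *Adora2a* and 27.6% at *Drd1*, and in the A2a list 0% and 100%. *Drd1* is the driver gene of the D1 Cre line, and *Sfxn1* is its neighbor. As a check of the broader cell class, which does not separate A2a from D1, 7 of 8 striatal projection neuron genes had a promoter H3K4me3 peak in each list. None of 4 interneuron genes and none of 4 microglia genes had a peak in either list. Of 4 genes each, 3 (A2a) and 2 (D1) oligodendrocyte genes, 1 and 1 astrocyte genes, and 1 and 2 cortical excitatory neuron genes had a peak. The part of these other cells in the values of the 4 genes was not tested.

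Direct pathway MSNs carry the D1 dopamine receptor and project to the basal ganglia output nuclei, whereas indirect pathway MSNs carry the D2 dopamine and A2a adenosine receptors. H3K4me3 marks the promoters of active genes and also the CpG-rich promoters of genes held ready for use. H3K27me3 is laid down by Polycomb repressive complex 2 and often covers developmental and cell type genes in the cells that do not use them, over the promoter alone or over long domains.

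RefSeq promoter sequence on GRCm38.p6 was matched for 2 of the 4 genes, *Slc35d3* and *Sfxn1*, and *Eya1* and *Tshz1* were not matched. The sequences are shown because both are rich in CpG and carry H3K4me3 in both cell types, while islands covered the bases printed at *Slc35d3* and none of those at *Sfxn1*. Each run of 300 bases spans 250 bases before to 50 bases after the RefSeq start, read 5′ to 3′ on the strand of the gene, with every CG dinucleotide in capitals. The *Slc35d3* promoter is chr10:19851410-19851709 (minus strand) and the *Sfxn1* promoter is chr13:54071595-54071894 (plus strand).

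Slc35d3: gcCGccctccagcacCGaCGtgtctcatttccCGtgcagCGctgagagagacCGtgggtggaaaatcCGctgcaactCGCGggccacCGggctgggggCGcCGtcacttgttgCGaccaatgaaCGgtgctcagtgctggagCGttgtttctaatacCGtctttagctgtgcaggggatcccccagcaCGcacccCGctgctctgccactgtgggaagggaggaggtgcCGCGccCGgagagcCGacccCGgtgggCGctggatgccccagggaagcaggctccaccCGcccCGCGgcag

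Sfxn1: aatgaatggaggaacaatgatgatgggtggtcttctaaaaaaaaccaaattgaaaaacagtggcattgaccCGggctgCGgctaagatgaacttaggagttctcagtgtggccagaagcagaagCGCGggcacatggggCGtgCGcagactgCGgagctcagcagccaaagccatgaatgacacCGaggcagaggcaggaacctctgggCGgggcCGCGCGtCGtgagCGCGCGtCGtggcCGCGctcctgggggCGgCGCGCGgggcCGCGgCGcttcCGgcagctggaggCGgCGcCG

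The *Slc35d3* promoter held 27 CG dinucleotides with a GC content of 67.7%, and the *Sfxn1* promoter held 30 with 63.3%. The median over 32851 RefSeq promoters of the same length was 7, and 15.5% and 11.7% of them held at least as many as these genes. GGGCGG, the GC box, searched on both strands, matched at 2 places in each promoter, and 35.7% of all promoters held a match. All 300 bases of the *Slc35d3* promoter lay under H3K4me3 peaks and H3K27me3 islands in A2a and in D1. At the *Sfxn1* promoter, peaks covered 55.7% of the bases in both lists and islands covered 0% in both.

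All 4 genes had a promoter H3K4me3 peak in A2a and in D1, where 58.2% (A2a) and 55.7% (D1) of all protein-coding genes had a peak. An H3K27me3 island reached the promoter of 2 of 4 genes in A2a (*Slc35d3* and *Eya1*) and of 3 of 4 in D1 (the same genes and *Sfxn1*). Over all genes these shares were 21.7% and 15.3%. From the promoter to the gene end, 4 genes held an island in A2a and 3 in D1, against 29.2% and 22.1% of all genes. *Tshz1* was the gene without an island in D1.

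The covered share of the span from promoter to gene end was higher in A2a for *Slc35d3*, *Eya1* and *Tshz1*, and lower for *Sfxn1*, against 24.5% of all genes with a higher share in A2a. Within 50 kb on each side of the TSS, islands covered more sequence in A2a than in D1 at 4 of 4 genes. This was also so for 54.5% of all genes (11964 genes), with less in A2a at only 1510 and no difference at the rest. The direction at the 4 genes was thus that of most genes that differed. The size differed more from the background, with a median difference of 32.3 kb over the 4 genes and 1.40 kb over all genes. At *Sfxn1*, 44.5 kb of the A2a island length in this window lay upstream of the gene, over and around *Drd1*. Over all genes, the median island length in the window was only 3.40 kb in A2a and 0 kb in D1.

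The lists differ in scale. Over 17893 islands that overlapped each other by at least 50% of both, reads per kb in A2a were 1.83 times those in D1 at the median (quartiles 1.63 and 2.04). Over 17126 H3K4me3 peaks matched in the same way, the ratio of −log10 q was 1.61 (quartiles 1.29 and 1.99) and that of fold enrichment was 1.07 (0.96 and 1.21). Read counts, q-values and fold enrichments are therefore given beside their percentile within their own list. Peaks were ranked by −log10 q and islands by reads. The A2a lists were also longer, with 22551 peaks and 60191 islands against 20080 and 45760 in D1. Islands summed to 301 Mb of sequence for the A2a list against 184 Mb for D1, and to 22091634 against 7878685 reads. The median island was 3.6 kb long against 3 kb. Covered lengths were not scaled for this. The paper also reports greater signal of both marks in A2a, and proposes sources such as cell number, mouse age or batch rather than biological variation. The authors normalized their signal for it. The part of such sources in the lengths given here was not tested. An island absent from a list says only that the authors' threshold was not reached there. The smallest islands listed held 36 reads in A2a and 27 in D1.

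**Figure D1:**
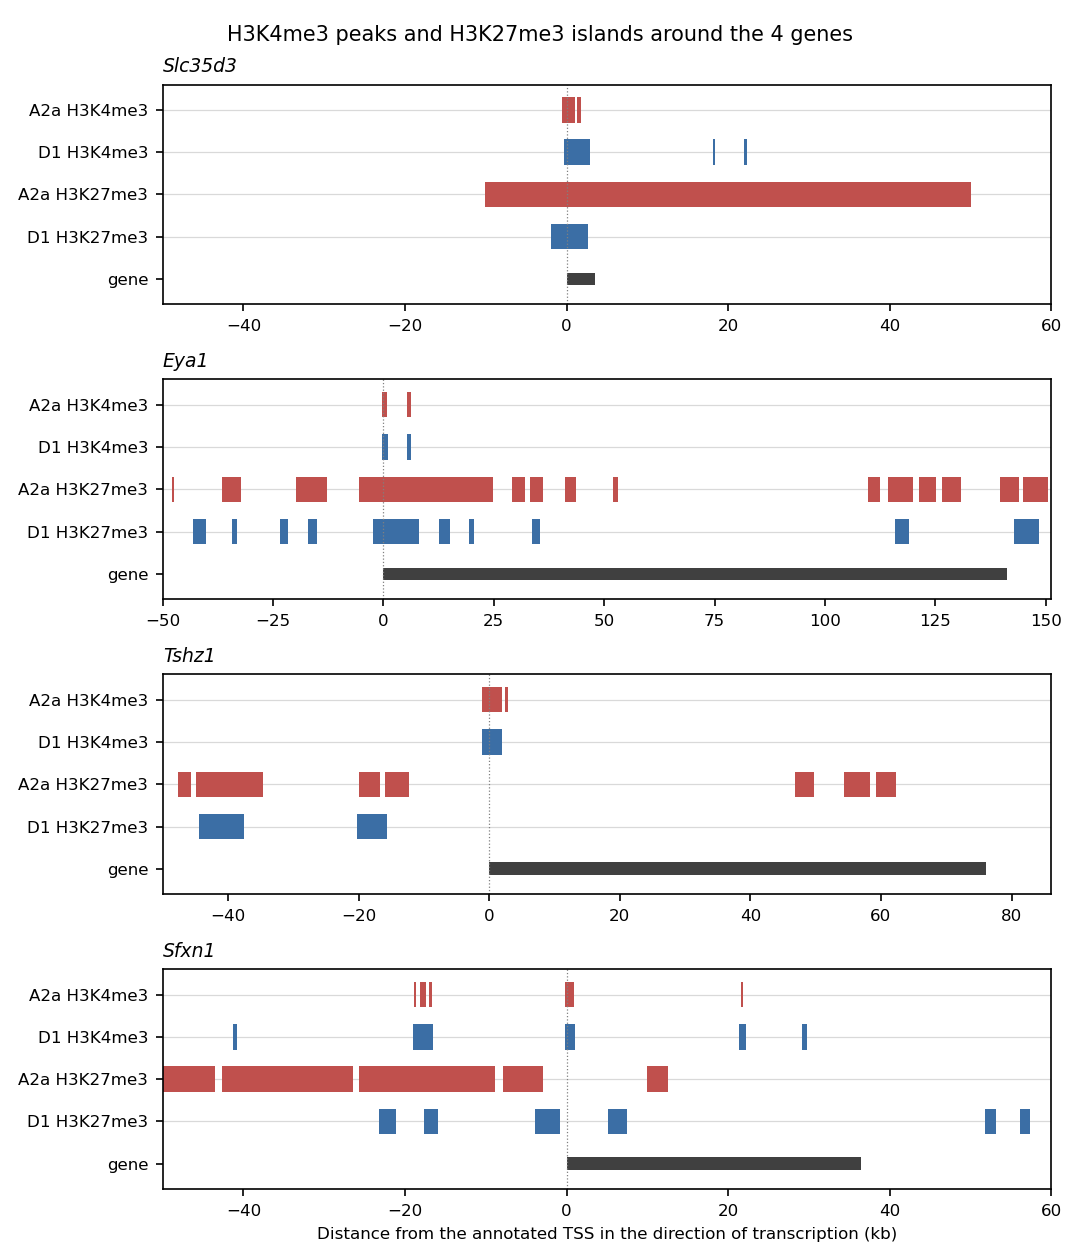
H3K4me3 peaks and H3K27me3 islands of the A2a (red) and D1 (blue) lists around *Slc35d3*, *Eya1*, *Tshz1* and *Sfxn1*, by distance in kb from the annotated TSS (dotted line) in the direction of transcription, with the gene body in grey. The A2a island at *Slc35d3* is 60.2 kb long against 4.6 kb in D1, the A2a island at *Eya1* is 30.4 kb against 10.4 kb, no island touches the *Tshz1* promoter, and the long A2a islands at *Sfxn1* lie upstream of the gene, the 16.8-kb island of them over *Drd1*.

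*Slc35d3* encodes an orphan member of the nucleotide sugar transporter family that is known to affect the membrane trafficking of the D1 dopamine receptor. The gene (ENSMUSG00000050473.5) runs from 19847916 to 19851459 on the minus strand of chromosome 10 and has 1 annotated transcript. Its promoter and gene body lay wholly under a single A2a H3K27me3 island from 19801401 to 19861600. This island of 60.2 kb held 8792 reads (exact 95% Poisson interval 8609 to 8978, counting error only). Of the 60191 A2a islands, 54 held more reads and 63 were longer.

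In D1, the island at *Slc35d3* ran from 19848801 to 19853400, a length of 4.6 kb with 154 reads (131 to 180). By reads, its rank in the D1 list was percentile 72.5, whereas the A2a island stood at percentile 99.9 of its list. The D1 island covered 83.0% of the span from promoter to gene end and 7.64% of the length of the A2a island. Per kb, the island held 146 reads in A2a and 33.5 in D1, which are 1.99 and 0.782 times the mean of their own lists. The islands were called separately and differ in extent, so these densities do not compare the same stretch of sequence.

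The A2a island at *Slc35d3* extended 10.1 kb upstream of the TSS and 50.1 kb in the direction of transcription, most of it beyond the gene end. Upstream it covered 7.70 kb of the 3′ part of *Pex7*, which encodes a peroxisomal import receptor and ends 2.44 kb from the *Slc35d3* start. The *Pex7* promoter, 56.2 kb away, held an H3K4me3 peak in both lists (percentile 59.0 in A2a and 73.1 in D1) and no island in either. On the other side, *Il20ra*, an interleukin receptor gene 87.9 kb away, had a promoter island of 9.8 kb with 1516 reads in A2a and none in D1. Its H3K4me3 peak stood at percentile 32.9 in A2a and 48.0 in D1.

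For H3K4me3, the D1 list held a single *Slc35d3* peak of 3282 bp, from 0.33 kb upstream to 2.95 kb downstream of the TSS and so over most of the gene. By length it ranked 165 of the 20080 D1 peaks. It had a fold enrichment of 3.54 and a −log10 q of 42.9 (percentile 47.0). The A2a list held a peak of 1620 bp at the TSS (4.79-fold enrichment, −log10 q 23.6, percentile 34.8). A second A2a peak of 488 bp lay over the exon downstream (2.88-fold, −log10 q 7.01) and ended 1.80 kb from the TSS. The part of the D1 peak beyond that point had no A2a peak. The longer D1 peak thus had the higher −log10 q and the lower fold enrichment.

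The ratio of −log10 q at the *Slc35d3* promoter was 0.55 (A2a over D1), from peaks that differ in extent. Beyond the gene end, D1 alone listed H3K4me3 peaks of 244 bp and 354 bp, at 18.1 and 21.9 kb from the TSS. They had −log10 q values of 3.83 and 8.88, lay in no annotated gene and fell within the stretch that the A2a island covered.

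*Sfxn1* encodes a mitochondrial serine transporter and starts 16.2 kb from the *Drd1* TSS, with the genes transcribed away from each other. It (ENSMUSG00000021474.9) runs from 54071869 to 54108342 on the plus strand of chromosome 13 and has 3 annotated transcripts, 1 of them protein-coding. The promoter H3K4me3 peak began at the same base in both lists. Its length was 1111 bp in A2a, at 10.1-fold enrichment and a −log10 q of 66.7 (percentile 51.9). The D1 peak measured 1230 bp, at 7.10-fold enrichment and a −log10 q of 47.7 (percentile 49.6). The ratio of −log10 q was 1.40, inside the quartiles of the matched peaks. That of fold enrichment was 1.42, higher than at 90.7% of the matched peaks.

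A further *Sfxn1* peak over an internal exon differed more. The A2a peak measured 271 bp with a −log10 q of 3.74 (percentile 1.88) and a fold enrichment of 3.32. The D1 peak measured 830 bp with a −log10 q of 24.2 (percentile 37.2) and a fold enrichment of 5.75. D1 alone listed an intronic peak of 551 bp with a −log10 q of 6.21, 29.2 kb from the TSS. The summits of the exon peak lay 867 bp (A2a) and 985 bp (D1) from the nearest annotated transcript start, that of a transcript that is not protein-coding.

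H3K27me3 at *Sfxn1* was confined to short islands in the gene itself. The A2a island there was 2.6 kb long with 143 reads (121 to 168) in an intron, 9.93 to 12.5 kb from the TSS. The D1 island was 2.4 kb long with 74 reads (58.1 to 92.9), also intronic, at 5.13 to 7.53 kb. These islands did not overlap each other. Upstream, a D1 island of 3.0 kb with 99 reads (80.5 to 121) ended 0.869 kb before the TSS and so touched 1.13 kb of the promoter window. The A2a island nearest to the start ended 2.87 kb before it, 0.869 kb outside the window.

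Beyond that point the A2a islands were long. In the 50 kb upstream of the *Sfxn1* TSS, A2a islands covered 44.5 kb and D1 islands 7.0 kb, whereas in the 50 kb downstream they covered 2.6 kb and 2.4 kb. The upstream A2a coverage came from 4 islands in a row, separated by gaps of 800, 800 and 1000 bp, with 4256 reads in 45 kb. The island over *Drd1* was 16.8 kb long with 1958 reads, 117 per kb, and the last in the row, between the genes, was 5.0 kb long with 424 reads, 84.8 per kb.

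Between the *Drd1* and *Sfxn1* starts, A2a islands covered 12.3 of 16.2 kb (76.1%) and D1 islands 3.30 kb (20.4%). At *Drd1*, the A2a list held 3 H3K4me3 peaks of 319, 786 and 423 bp where the D1 list held a single peak of 2484 bp. The percentiles of the A2a peaks were 16.3, 9.77 and 4.04, the last being the peak in the promoter window, and that of the D1 peak was 43.6. The part of the split call in these ranks was not tested. At the *Sfxn1* promoter the percentiles were 51.9 and 49.6. Among 21938 genes, 100 had a larger A2a excess of island length within 50 kb than *Sfxn1* (37.7 kb). *Drd1*, whose window overlaps that of *Sfxn1*, was among them with 48.5 kb. *Hrh2*, a histamine receptor gene 83.8 kb downstream of *Sfxn1*, had a promoter H3K4me3 peak and no promoter island in either list.

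**Figure D2:**
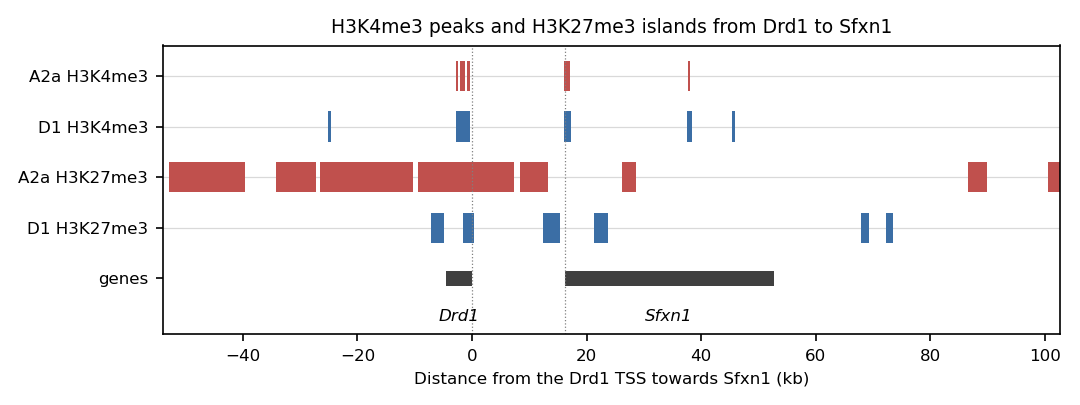
H3K4me3 peaks and H3K27me3 islands of A2a (red) and D1 (blue) by distance in kb from the *Drd1* TSS towards *Sfxn1*, with dotted lines at both starts and gene bodies in grey. A2a islands cover 76.1% of the 16.2 kb between the starts and the last of them ends 2.87 kb before the *Sfxn1* TSS, while D1 islands cover 20.4%.

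*Eya1* encodes a transcriptional co-activator with phosphatase activity that acts together with homeodomain proteins. It (ENSMUSG00000025932.14) runs from 14168954 to 14310235 on the minus strand of chromosome 1 and has 9 annotated transcripts. Both marks lay on its promoter in both lists. The A2a H3K27me3 island, from 14285401 to 14315800, was 30.4 kb long with 2977 reads (2871 to 3086), at percentile 99.1. The D1 island, from 14302201 to 14312600, was 10.4 kb long with 544 reads (499 to 592), at percentile 96.3.

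The *Eya1* islands held 97.9 reads per kb in A2a and 52.3 in D1. These are densities of separately called islands that differ in extent, so they do not compare the same stretch of sequence. The A2a island overlapped 3 D1 islands, which covered 13.8 kb (45.4%) of it with 700 reads. From promoter to gene end, a span of 143 kb, A2a held 10 islands that covered 38.2% and D1 held 5 that covered 12.9%. The coverage gathered at the 2 ends of the gene, and between 53.2 and 110 kb from the TSS neither list held an island.

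H3K4me3 at the *Eya1* promoter was a peak of 1107 bp in A2a, at 7.50-fold enrichment and a −log10 q of 85.9 (percentile 57.3). The D1 peak measured 1309 bp, at 7.43-fold enrichment and a −log10 q of 81.4 (percentile 68.1). The ratio of −log10 q, 1.06, lay below the lower quartile of the matched peaks, while the fold enrichments were nearly equal. A second peak began 5.28 kb into the gene in both lists, with its summit 14 bp (A2a) and 52 bp (D1) from the start of a protein-coding transcript. It was 878 and 900 bp long, at percentiles 39.5 and 39.1. Both peaks lay within the promoter island in both lists.

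*Eya1* stood far from other protein-coding genes. The nearest were *Msc*, a basic helix-loop-helix factor gene 443 kb upstream, and *Xkr9* 467 kb downstream. *Msc* carried both marks on its promoter in both lists, with an island of 28.8 kb and 2610 reads in A2a and of 5.2 kb and 248 reads in D1.

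*Tshz1* encodes a zinc finger transcription factor of the teashirt family and marks a subset of direct pathway MSNs. It (ENSMUSG00000046982.11) runs from 84011627 to 84087706 on the minus strand of chromosome 18. Its promoter is shared with *Zadh2*, a gene of an oxidoreductase that starts 357 bp away and is transcribed in the other direction. A single broad H3K4me3 peak covered both starts, so its signal cannot be divided between the genes.

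The shared *Tshz1* peak measured 3049 bp in A2a, at 3.71-fold enrichment and a −log10 q of 128 (percentile 72.5). Its length in D1 was 3004 bp, at 3.82-fold enrichment and a −log10 q of 88.4 (percentile 72.3). The ratio of 1.45 lay inside the quartiles of the matched peaks. The summits lay 1136 bp (A2a) and 1118 bp (D1) downstream of the annotated TSS. They were 119 bp (A2a) and 137 bp (D1) from the nearest protein-coding *Tshz1* start, which is another start inside the gene. A2a alone listed a further peak of 535 bp over an exon, with a fold enrichment of 1.91 and a −log10 q of 18.8.

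No H3K27me3 island reached the *Tshz1* promoter. The distance to the nearest island was 10.3 kb in A2a and 13.7 kb in D1, upstream of the gene and beyond *Zadh2*. In the *Tshz1* gene body, A2a held 3 intronic islands of 2.8, 4.0 and 3.0 kb with 168, 285 and 180 reads, between 46.9 and 62.3 kb from the TSS. They covered 12.6% of the span from promoter to gene end, at percentiles 34.9 to 66.0 of the A2a islands. D1 held none in this span. Within 50 kb of the TSS, islands covered 21.8 kb in A2a and 11.6 kb in D1, of which 19 and 11.6 kb lay upstream, outside the gene. The nearest protein-coding gene downstream, *Zfp516*, lay 1006 kb away and had promoter H3K4me3 peaks (percentiles 42.3 and 30.0) and no island from promoter to gene end in either list.

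**Figure D3:**
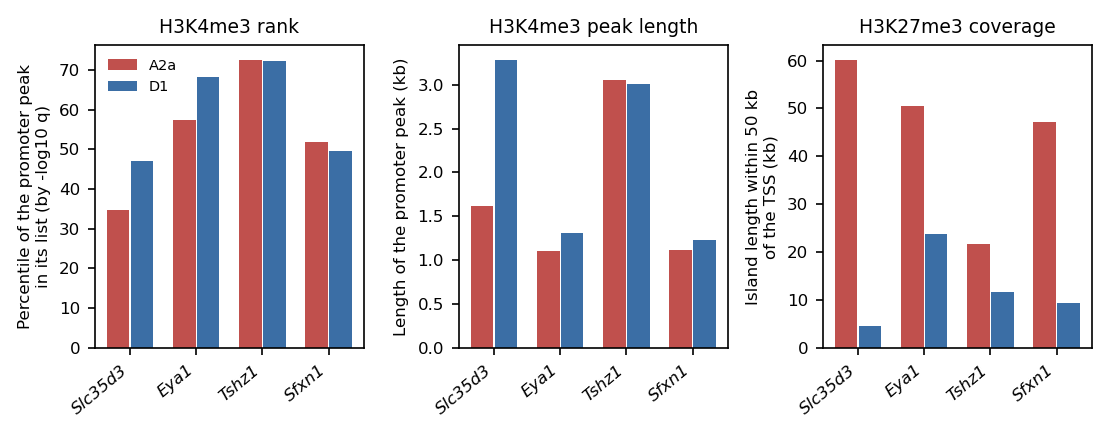
Bars from 0 for the percentile of the strongest promoter H3K4me3 peak by −log10 q within its list, the length of that peak in kb, and the H3K27me3 island length in kb within 50 kb of the TSS, for the 4 genes in A2a (red) and D1 (blue). Each bar is a single value of a pooled list, so there are no error bars. D1 has the longer peak at *Slc35d3* (3282 against 1620 bp), and island length is higher in A2a at all 4 genes.

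Set side by side, the 4 genes did not share a single pattern. The difference in H3K4me3 percentile at the promoter (A2a minus D1) was -12.2 points at *Slc35d3*, -10.8 points at *Eya1*, 0.17 points at *Tshz1* and 2.34 points at *Sfxn1*. Among the 12194 genes with a promoter peak in both lists, 34.7% had a lower percentile in A2a, and the median difference was 3.84 points. With peaks ranked by fold enrichment, the difference at *Slc35d3* turned to 15.0 points, so its direction depends on which of the deposited values is ranked. The differences at *Tshz1* and *Sfxn1* turned to -3.22 and -3.59 points with equal numbers of peaks in both lists. The promoter peak was longer in D1 at *Slc35d3*, *Eya1* and *Sfxn1*, 3 of 4 genes, against 18.3% of all genes with a peak in both lists. At *Slc35d3* the A2a length leaves out the second peak of 488 bp, which the D1 peak overlaps.

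The difference in island length within 50 kb of the TSS ordered the genes as *Slc35d3* (55.5 kb more in A2a), *Sfxn1* (37.7 kb), *Eya1* (26.8 kb) and *Tshz1* (10.2 kb). Of all 21938 genes, 19, 100, 418 and 3553 had a larger difference, respectively. The promoter window itself held little of the excess. Islands covered 100% of it in both lists at *Eya1*, and 100% in A2a and 98.0% in D1 at *Slc35d3*, so the added A2a length lay outside the window. At *Sfxn1* the excess lay upstream, over *Drd1* and over sequence without an annotated gene on both sides of it. At *Tshz1* it was spread over islands away from the promoter.

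Direct and indirect pathway genes from a list served for comparison. For *Drd1*, *Pdyn*, *Tac1*, *Adora2a*, *Drd2* and *Penk*, the authors had reported the direction of both marks from these same data. Their directions here are therefore no independent support. The paper also reports greater H3K27me3 in A2a over genes upregulated in D1 cells, and the reverse over those upregulated in A2a cells. The 4 genes and the rest of both lists were chosen with earlier results of these data known, so they carry no independent support either. Over all 21938 genes, the covered share was higher in A2a at 5383 and lower at 938. At 6 other direct pathway genes (*Drd1*, *Pdyn*, *Tac1*, *Chrm4*, *Isl1* and *Ebf1*), A2a had the higher covered share at 6 of 6, with a median of 100% in A2a and 14.1% in D1. The corresponding medians over the 4 genes were 25.4% and 11.0%, and over all genes 0% and 0%. At 6 indirect pathway genes (*Adora2a*, *Drd2*, *Penk*, *Gpr6*, *Sp9* and *Grik3*) the share was lower in A2a at 6 of 6, with medians of 2.23% and 92.2%. Within 50 kb, the median difference (A2a minus D1) was 54.4 kb at the other direct pathway genes and -62.4 kb at the indirect pathway genes. On this measure the other direct pathway genes ranged from 12.8 kb (*Chrm4*) to 81.0 kb (*Tac1*). *Slc35d3* lay near their median. *Sfxn1* and *Eya1* lay below the median but inside the range, and *Tshz1* lay below the range. The *Sfxn1* window takes in *Drd1*, so its value is not independent of that gene. Marker genes of other cells also had longer islands in A2a within 50 kb, and none had shorter ones. This held at 4 of 4 genes each for cortical excitatory neurons, interneurons, oligodendrocytes and astrocytes, and at 3 of 4 for microglia. Their median differences were 9.8, 5.7, 1.6, 9.7 and 8.5 kb, and the 10.2 kb of *Tshz1* was close to the largest of these.

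*Isl1* and *Ebf1*, transcription factor genes of developing direct pathway neurons, had promoter islands of 31.2 kb (6620 reads) and 70.8 kb (10008 reads) in A2a. In D1 these were 5.8 kb (229 reads) and 1.4 kb (61 reads). *Ebf1* had a promoter H3K4me3 peak in D1 (percentile 46.7) and none in A2a. *Chrm4*, the M4 muscarinic receptor gene, had 2 promoter islands in A2a, the stronger of 4.8 kb with 495 reads. It had none in D1, and no promoter peak in either list. H3K4me3 percentiles by −log10 q were lower in A2a at 4 of 4 other direct pathway genes with a peak in both lists and at 0 of 6 indirect pathway genes. Over all genes with a peak in both lists, 34.7% were lower in A2a. Fold enrichment did not split the lists in this way. It was higher in A2a at *Tac1* (4.88 against 4.08) and *Isl1* (3.68 against 2.68), and lower at *Drd1* and *Pdyn*. Among the indirect pathway genes it was lower in A2a at *Drd2*, *Penk*, *Gpr6* and *Grik3*, and higher at *Adora2a* and *Sp9*.

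**Figure D4:**
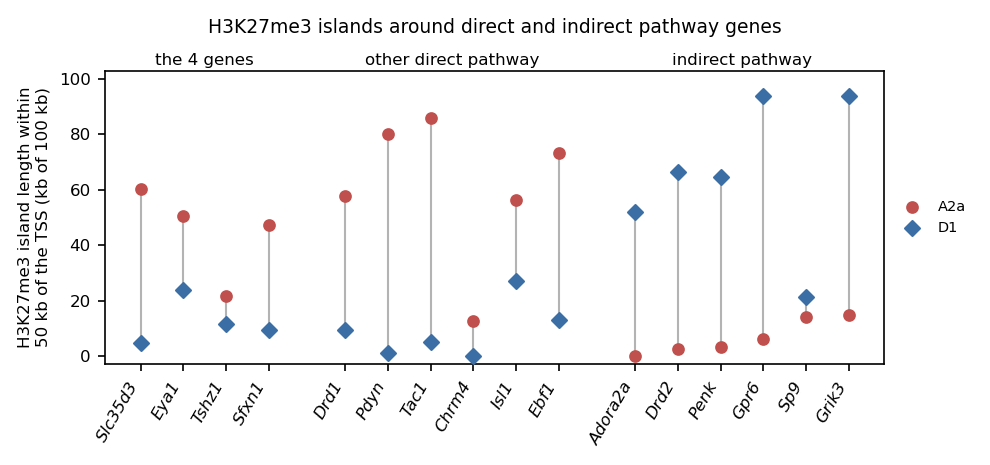
H3K27me3 island length in kb within 50 kb on each side of the TSS in A2a (red circles) and D1 (blue diamonds) for the 4 genes, 6 other direct pathway genes and 6 indirect pathway genes, with a grey line joining the values of a gene. A2a lies above D1 at the 4 genes and the 6 other direct pathway genes, and below D1 at the 6 indirect pathway genes. *Sfxn1* is shown for its place beside *Drd1*, which its window takes in. The gap at *Tshz1* (21.8 against 11.6 kb) is the smallest among the 4 genes.

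Relatives of the 4 genes were read in the same way. In the *Slc35d* family, *Slc35d1* had no island from promoter to gene end and *Slc35d2* had a promoter island of 4.2 kb with 274 reads in A2a and none in D1. In the *Eya* family, *Eya4* had long islands in both lists, 29.4 kb with 3296 reads in A2a and 24.4 kb with 1620 reads in D1. *Eya2* had shorter ones (4.4 and 5.6 kb) and no promoter peak, and *Eya3* had a peak in both lists and no island. At *Eya4* the island lengths of the lists were thus closer to each other than at *Eya1* (30.4 and 10.4 kb).

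Homeobox genes whose products can partner with Eya proteins were read as well. *Six2* and *Six6* were wholly under islands in both lists and had no promoter peak. *Six3* had an island of 9.2 kb with 592 reads in A2a and 2.2 kb with 69 reads in D1. *Six4* had islands of similar length, 15.4 kb with 1802 reads in A2a and 13.2 kb with 755 reads in D1, and *Six5* had none.

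The *Tshz* relatives carried what *Tshz1* lacked. *Tshz2* had a promoter island of 24.6 kb with 2106 reads in A2a and of 2.2 kb with 123 reads in D1. *Tshz3* had one of 26.2 kb with 3368 reads in A2a and 2 in D1, the stronger of 9.2 kb with 855 reads. Islands covered 49.4% of the *Tshz3* promoter window in A2a and 73.3% in D1. The promoter peaks of these relatives stood at similar percentiles in A2a and D1, 41.0 and 40.3 for *Tshz2* and 56.6 and 54.0 for *Tshz3*. In the *Sfxn* family, *Sfxn2*, *Sfxn3*, *Sfxn4* and *Sfxn5* had promoter peaks and no island from promoter to gene end in either list.

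**Figure D5:**
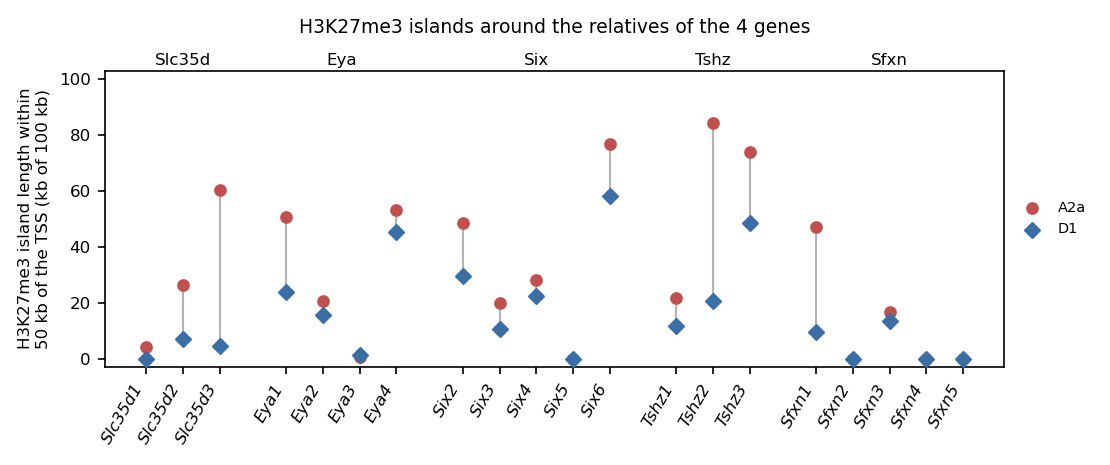
H3K27me3 island length in kb within 50 kb on each side of the TSS in A2a (red circles) and D1 (blue diamonds) for the *Slc35d*, *Eya*, *Tshz* and *Sfxn* families and *Six2*, *Six3*, *Six4*, *Six5* and *Six6*. *Tshz2* (84.2 against 20.6 kb) and *Slc35d3* (60.1 against 4.6 kb) show the widest gaps, while *Six6* (76.9 against 58.0 kb) and *Eya4* (53.2 against 45.2 kb) are high in both lists.

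The genes most like each of the 4 were found by the distance over 4 values, the percentile of the strongest promoter peak or island in each list, with 0 where there was none. This likeness is a description over 4 pooled lists. *Slc35d3* lay nearest to *Il1rapl2* (distance 9.23), *Shisa6* (12.2) and *Tac1* (12.2), and *Tac1* is itself a direct pathway gene on the list above. *Eya1* lay nearest to *Cbx8* (2.45), *Hey2* (5.64) and *Skap2* (6.05), which had both marks on the promoter in both lists. *Tshz1* lay nearest to *Zadh2*, with which it shares its peak, and then to *Arl5a* (0.126) and *Polg* (0.335), which had a promoter peak and no island. *Sfxn1* lay nearest to *Ackr3* (4.24), *Zbbx* (7.67) and *Cdh18* (7.76), which had a promoter island in D1 alone.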

How the data were processed

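In the authors' pipeline, Bowtie2 (2.1.0 in the submitters' processing notes, beside SAMtools 0.1.19) aligned the reads to mm10, and pairs under a mapping quality of 20, duplicates, and inserts outside 150 to 500 bp were dropped. The authors' MACS2 peaks of H3K4me3 come with a deposited ratio (fold enrichment over the local background) and a −log10 q-value. Their SICER islands of H3K27me3 used 200-bp windows, 600-bp gaps and a false discovery rate of 0.01, with a control not named in the sources used here. Each island has a deposited read count, not scaled for depth. All lists pool 2 replicates, so values have no replicate error, and the number of reads per library is not in the lists. Windows under the caller's read threshold over more than 600 bp end an island, so lengths depend on that setting and on depth.

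The lists were read against GENCODE vM21 genes (GRCm38), with coordinates counted from 1. Percentiles are within a list, by −log10 q or by reads. Exact Poisson intervals (95%) cover counting error only. No test between A2a and D1 was possible. The genes named are the 4 genes, their nearest protein-coding neighbors, their families, *Six2* to *Six6* as partner genes of *Eya1*, the direct and indirect pathway lists, and the 3 genes most like each. A gene that this rule also names is not reported here. *Gpr52*, on the indirect pathway list, was not found in the annotation. The members and lists were chosen with earlier results of these data known. Placing regions at promoters was run on simulated regions centred inside the promoter window, where 2000 of 2000 were recovered. No region outside a window was simulated, so false placement was not tested. Scripts ran in Python 3.11.15 with numpy 2.4.6, scipy 1.17.1 and matplotlib 3.10.9.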

Additional observations from a re-analysis of the deposited data

How the results depend on the processing

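The 14 results were recomputed under 10 other settings, which gave 74 values. Of these, 53 kept the reported value or, for counts of genes, stayed within 1.5 times of it, 16 moved and 5 changed direction. The counts of genes with a promoter peak, a promoter island or an island up to the gene end were among the 53 throughout. Within that margin, the A2a count of promoter islands rose from 2 to 3 with a window of 5 kb on each side. It was also 3 with the TSS of any transcript, and D1 kept 3 in both settings. With equal numbers of islands, 3 genes in A2a and 3 in D1 held an island up to the gene end. The differences between A2a and D1 in these counts thus depend on the setting. The difference in H3K4me3 percentile (A2a minus D1) at *Slc35d3*, -12.2, was -11.1 with −log10 q of at least 5, -20.2 with the longer list cut to the strongest peaks in equal number, and turned to 15.0 with peaks ranked by fold enrichment. At *Eya1* (-10.8) these values were -10.3, -16.1 and -3.64. At *Tshz1* (0.17) they were 1.02, -3.22 and -4.44, and at *Sfxn1* (2.34) they were 3.98, -3.59 and 27.5, so the direction at *Tshz1* and *Sfxn1* changed with the setting. The difference in covered share at *Eya1* (25.3 percentage points) was 26.4 with islands of at least 2000 bp, 29.3 with islands within 5 kb merged, 22.6 with equal numbers of islands, and 26.8 within 50 kb of the TSS. That at *Tshz1* (12.6) was 19.7 with merging and 10.2 within 50 kb, and that at *Slc35d3* (17.0) was 55.5 within 50 kb. At *Sfxn1* (-2.42) it was -9.18 with equal numbers and turned to 37.7 within 50 kb, a window that takes in *Drd1*. For the other values the cause was not tested. No paired analysis was possible because each list pools its replicates, and for the same reason no replicate could be left out.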
